A study of Mus musculus with 7 samples.

Results

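The 10 genes described here are the apolipoprotein genes Apoa1, Apoa2, Apoa4, Apoa5, Apob, Apoc1, Apoc2, Apoc3, Apoe and Apom of the mouse, taken by symbol from the 20583 protein-coding genes with a known strand. A peak was assigned to them when its midpoint lay in a gene span or within 50 kb of it on the GRCm38 (mm10) build, which gave 291 of the 245004 peaks in 6 lists. Peak lists for 2 retinoic acid receptors, RARα and RARβ, and for their partner RXRα (retinoid x receptor α) came from chromatin immunoprecipitation followed by sequencing (ChIP-seq) of livers of wild-type male C57BL/6 mice aged 3 months. The mice ate normal food (control) or food containing retinoic acid (RA). By the labels they did so for 1 day, whereas the methods of the study describe a longer RA feeding. Each receptor and diet had 1 library, so that no difference between diets or between receptors had a replicate check, and no test was run. An input library of chromatin without pull-down served both diets in the study and was not analysed here.

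Apolipoproteins are the protein part of the particles that carry triglyceride and cholesterol in blood. The liver makes most of them: apoB is the structural protein of very-low-density lipoprotein, apoA-I and apoA-II are the main proteins of high-density lipoprotein, and apoE is a ligand for the receptors that clear remnant particles. ApoC-II activates lipoprotein lipase, whereas apoC-I and apoC-III slow the clearance of triglyceride-rich particles, apoA-V lowers plasma triglyceride, apoA-IV is carried on chylomicrons and high-density lipoprotein, and apoM carries sphingosine-1-phosphate. RAR binds DNA as a dimer with RXR, and RXR also pairs with other lipid-sensing nuclear receptors, each partner contacting a half-site of 6 bases.

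The 10 genes lie in 5 places. Apoa1, Apoc3, Apoa4 and Apoa5 share a cluster on chromosome 9, and Apoc2, Apoc1 and Apoe share another on chromosome 7, whereas Apoa2 (chromosome 1), Apob (chromosome 12) and Apom (chromosome 17) stand alone. Neighbours in a cluster share peaks, and each peak was counted once. Offsets are from the outermost start of a gene to the midpoint of a peak, with "upstream" and "downstream" meant in the direction of transcription.

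Promoter sequences of 4 genes are shown because they carry the clearest contrasts between the receptors. Each run is written 5′ to 3′ on the gene's strand and ends at the base before the outermost start. Capitals mark a match to the half-site AGGTCA, to its variant GGGTCA, to the form AGTTCA or to the form GGTTCA, on either strand. The sequences are from RefSeq (GRCm38.p6). The Apoa1 window (chr9:46228380-46228629, plus strand) lay wholly under a RARα peak in control and mostly under one with RA, and met no RARβ or RXRα peak. The Apoa5 window (chr9:46268358-46268607, plus strand) lay under peaks in 5 lists, with RARβ control missing. The Apob window (chr12:7977427-7977628, plus strand, 202 bases) met peaks in 5 lists, with RARα control missing. The Apom window (chr17:35131802-35132051, minus strand) lay under RXRα peaks in both diets and under no RAR peak.
Apoa1: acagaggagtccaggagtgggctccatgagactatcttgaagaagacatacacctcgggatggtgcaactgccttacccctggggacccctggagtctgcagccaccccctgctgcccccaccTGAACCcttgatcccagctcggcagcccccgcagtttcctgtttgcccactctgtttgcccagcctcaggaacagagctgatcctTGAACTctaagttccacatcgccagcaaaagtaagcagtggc
Apoa5: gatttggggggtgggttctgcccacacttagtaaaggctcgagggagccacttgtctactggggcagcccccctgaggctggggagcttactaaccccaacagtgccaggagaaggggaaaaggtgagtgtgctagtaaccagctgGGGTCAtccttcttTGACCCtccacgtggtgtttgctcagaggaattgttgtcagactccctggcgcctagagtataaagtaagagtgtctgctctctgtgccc
Apob: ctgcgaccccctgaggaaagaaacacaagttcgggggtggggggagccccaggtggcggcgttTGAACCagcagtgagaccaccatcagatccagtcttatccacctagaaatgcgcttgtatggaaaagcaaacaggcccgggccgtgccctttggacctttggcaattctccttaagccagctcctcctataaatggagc
Apom: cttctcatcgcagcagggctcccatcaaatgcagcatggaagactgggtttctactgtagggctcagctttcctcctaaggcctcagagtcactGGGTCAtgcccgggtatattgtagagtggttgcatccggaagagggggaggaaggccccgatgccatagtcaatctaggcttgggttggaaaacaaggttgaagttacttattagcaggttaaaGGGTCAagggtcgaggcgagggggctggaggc

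Apoa5 held GGGTCA facing GGGTCA across a gap, 104 to 99 and 90 to 85 bases before the start, the second on the opposite strand. Apom held GGGTCA on its own strand 156 to 151 and 32 to 27 bases before the start. Apoa1 held GGTTCA at 127 to 122 and AGTTCA at 42 to 37 bases before the start, both on the opposite strand, and Apob held GGTTCA on the opposite strand at 139 to 134. RefSeq promoters were found for 8 of the 10 genes and not for Apoc1 and Apoc3. Of their 12 promoter windows of 250 bases before a start, some of which overlap, 11 held a half-site, compared with 38.6% of all 32851 windows, and each of the 8 genes had one, compared with 41.8% of 27025 genes. No window held a direct repeat of the 4 half-sites with a spacer of 0 to 5 bases, an arrangement found in 0.706% of all windows. These matches describe letters and are not binding sites.

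The lists held 35521 peaks for RARα control, 44296 for RARα RA, 14968 for RARβ control, 29467 for RARβ RA, 61128 for RXRα control and 59624 for RXRα RA. Each peak carried a score from the peak caller, with a minimum of about 50, and the scores were not scaled between libraries. Ranks are therefore given within a list, rank 1 being its highest score. The lists hold no read totals, so the depth behind each was not analysed here. Marker genes with a peak within 10 kb did not single out hepatocytes for the RARs. RXRα had a peak at all 6 hepatocyte markers in either diet, RARα at 2 and 3 of 6, and RARβ at 2 and 4. Of 2 endothelial markers RARα had a peak at both in each diet, RARβ at 0 and 1, and RXRα at 0. Of 3 stellate cell markers RARα had one at 1 and 2, RARβ at 0 and RXRα at 1 in each diet. Of 2 cholangiocyte markers RARα and RXRα had one at 1 in each diet, and RARβ at 0 and 1. None of 3 Kupffer cell markers had a peak. A peak is not expression, and between 45.1% and 64.6% of all genes had one, so these counts do not check the labelled tissue.

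At the apolipoprotein genes, RARα had 41 peaks in control and 52 under RA, RARβ had 21 and 43, and RXRα had 69 and 65. The chromosome 9 cluster took 13 peaks of RARα in control and 16 under RA, 6 and 14 of RARβ, and 22 and 17 of RXRα. The chromosome 7 cluster had 10 RARα peaks in each diet, 6 and 9 for RARβ, and 16 and 15 for RXRα. Apob had few RAR peaks in control, with 2 for each RAR against 7 for RARα and 6 for RARβ under RA, while RXRα had 12 in both diets. Apoa2 had 9 and 10 for RARα, 3 and 8 for RARβ, and 12 and 13 for RXRα. At Apom the 3 receptors were closer, with 7 and 9, 4 and 6, and 7 and 8 peaks. The windows took between 0.109% and 0.146% of each list, and the whole RARβ list was longer under RA as well. With each list cut by score to the 14968 peaks of the shortest, RARα had 22 peaks in each diet, RARβ 21 in control and 16 under RA, and RXRα 16 and 18, so that the higher RARβ count under RA did not hold at equal length.

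**Figure D1:**
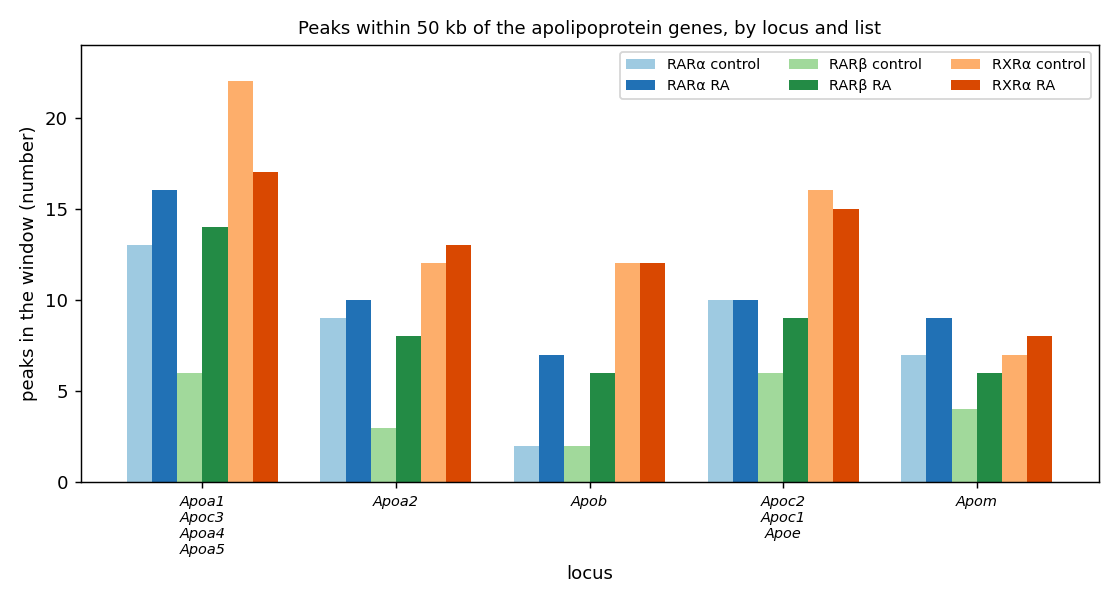
Number of peaks (vertical axis) within 50 kb of the apolipoprotein genes at each of the 5 loci, with 1 bar per peak list (receptor and diet, 1 library each). RXRα bars are the highest at 4 of the 5 loci, and RARβ bars are higher under RA at each locus.

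All 10 genes had a peak in every list within 50 kb of their span. So did 85.1% of all protein-coding genes for RARα control, 86.3% for RARα RA, 71.7% for RARβ control, 79.2% for RARβ RA, 85.1% for RXRα control and 85.6% for RXRα RA, so that this window says little about the 10 genes. Within 10 kb of the start, 9 genes had a RARα peak in control, Apob being the exception, compared with 63.2% of all genes, and 10 under RA, compared with 64.6%. RARβ had a peak at 9 genes in control, Apoe being the exception, compared with 45.1% of all genes, and at 10 under RA, compared with 55.9%. RXRα had one at 10 genes in both diets, compared with 62.6% in control and 62.9% under RA. Such a peak can lie at the start of a neighbour. The RARβ control peaks counted for Apoa2, Apoa5 and Apom were 146, 231 and 9 bp from the starts of Tomm40l, Zpr1 and Bag6. Peaks were shared within the clusters, so the 10 genes are not 10 independent cases. At equal list length RARβ RA had a peak within 10 kb of 4 genes and RXRα control of 5. The share of all genes at that length was not counted, so the shares above are no comparison for these counts. Of the RARβ peaks described below as found under RA alone, those past rank 14968 lie beyond the length of the control list.

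Within 1 kb of the start the picture differed between receptors. RARα had a peak at 5 genes in control and 6 under RA, compared with 47.3% and 47.6% of all genes. RARβ had one at 1 gene (Apob) in control, compared with 34.1%, and at 6 genes under RA, compared with 41.5%. RXRα had one at 8 genes in control and 7 under RA, compared with 41.3% and 43.1%. A wide peak can cover a start while its midpoint lies further than 1 kb away, as RARα did at Apoa1 and Apoa5.

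**Figure D2:**
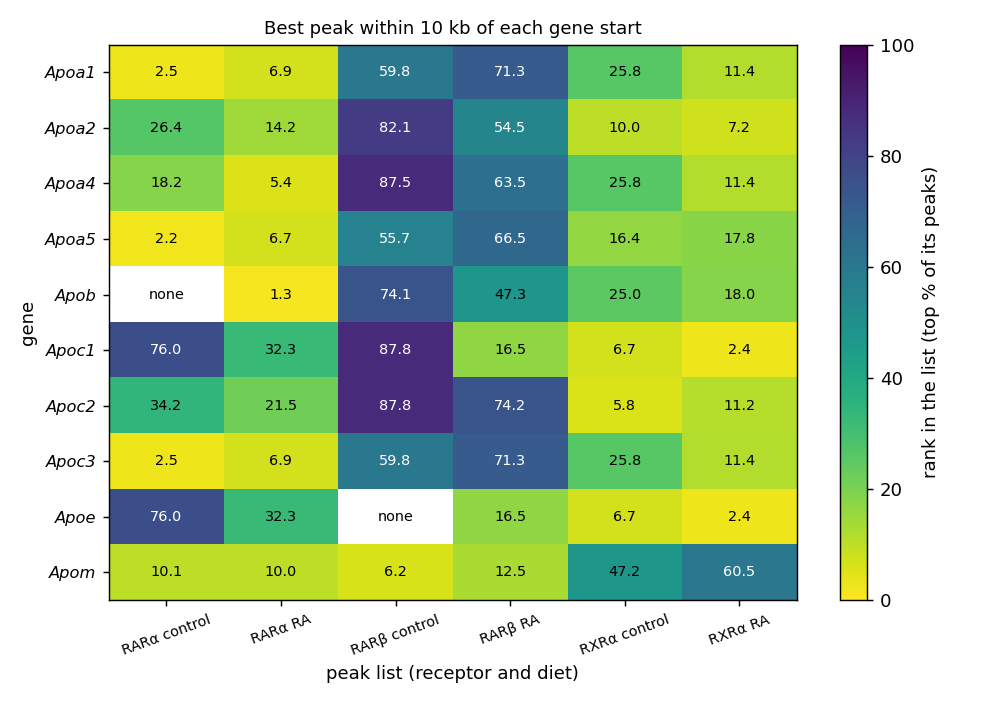
Rank of the highest-scoring peak within 10 kb of each gene start, as the top percent of its own list (colour and number), for the 10 genes (rows) and 6 lists (columns). Low numbers are high scores. Apob under RARα RA (1.29) is the best value, RARβ control is at 55.7 or more outside Apom, and 2 cells hold no peak.

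Of the genes of high-density lipoprotein, Apoa1 (chr9:46228630-46230469) lay wholly under 1 RARα peak in both diets. In control the peak was 5764 bp wide with score 536 and rank 902 (top 2.54%), and under RA it was 4879 bp wide with score 405 and rank 3077 (top 6.95%). RARβ peaks covered 39.7% of the Apoa1 span in control and 65.4% under RA, with low scores of 68.2 and 59.2 for the nearest peak. RXRα had no peak over Apoa1 in either diet, its nearest peaks lying 3149 bp upstream in control (rank 39322) and 2931 bp upstream under RA (rank 16002). The best RXRα peaks of the cluster were further upstream, 12.7 kb in control (rank 698, top 1.14%) and 13.4 kb under RA (rank 1012, top 1.70%), inside Sik3, which encodes a salt-inducible kinase. That region had peaks in all 6 lists. RARα ranked 12033 and 16019 there and RARβ 3999 and 4737. Another region inside the same window, 21.4 kb upstream of Apoa1, ranked 2784 and 1449 for RXRα and had a RARβ peak under RA alone (rank 14823).

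Apoa2 (chr1:171221564-171226379) was 58.6% covered by RARα peaks in control and lay wholly under a RARα peak of 7721 bp under RA, which had score 122 and rank 22163. RXRα covered 37.5% and 79.8% of it, and RARβ 14.1% and 50.4%. Not all of this coverage is particular to Apoa2. The RARβ control peak lay nearest to the start of the neighbour Tomm40l, 146 bp away. The RA peaks of RARα (7721 bp) and RXRα (4817 bp) touched both genes. Apoa2 has another RefSeq start 3490 bp inside the outermost one. RXRα control had a peak over this inner start and none over the outermost one. RARβ control had none over either, and the other lists had one over both. The RARα control peak 203 bp downstream of the inner start ranked 9395, compared with 28403 for the one at the outermost start. The highest RXRα scores at Apoa2 were 17.0 kb upstream in control, with rank 973 (top 1.59%), and 17.5 kb upstream under RA, with rank 431 (top 0.723%). RARα had peaks there in both diets (ranks 14324 and 16786). RARβ had one under RA alone, and its rank of 1688 was the best RARβ rank at this gene. A region 7.33 kb upstream of Apoa2, at the start of Nr1i3, which encodes the constitutive androstane receptor, had peaks in 5 lists, with ranks of 6137 and 4289 for RXRα, 9619 and 6272 for RARα, and 16073 for RARβ under RA. The highest RARα score of this window under RA was not near Apoa2 but 48.7 kb downstream, at the start of B4galt3 (rank 1020). RARβ control also had its best peak there (rank 6271, top 41.9%).

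Apom (chr17:35128997-35131801) differed from the other genes in which receptors met its start. RXRα peaks lay 156 bp upstream in control (score 151, rank 28852) and 128 bp upstream under RA (score 74.3, rank 47685). Neither RAR had a peak over the gene. The RAR peaks nearest to the Apom start were 3.53 kb upstream at the start of Bag6, which encodes a chaperone. RARα ranked 3600 and 4420 there, RARβ 927 and 3698, and RXRα 32321 and 36049. A RARα peak 46.9 kb upstream of Apom, 2628 bp from the nearest start (Aif1), ranked about as high in control (3672) and ranked 11842 under RA. Past the other end of Apom, a region 5.68 kb downstream of its start had RAR peaks and no RXRα peak. Its nearest start was that of D17H6S53E. RARα ranked 15631 and 12834 there, and RARβ had a peak under RA alone (rank 16669). RARα control had its best peak at the start of Abhd16a (rank 1923), and RXRα had its best peaks in the window at the start of Prrc2a, with ranks of only 27492 (top 44.97%) and 35558 (top 59.6%).

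Among the genes of triglyceride-rich lipoproteins, Apob (chr12:7977629-8016839) showed the clearest difference between the diets. RARα had no peak within 10 kb of its start in control, where the nearest peak was 27321 bp upstream (rank 17893). Under RA a peak of 2279 bp lay over the start, with its midpoint 720 bp downstream, score 627 and rank 571 (top 1.29%), the best RARα rank at any of the 10 genes. It had no overlap with the control list. RARβ had peaks at the Apob start in both diets, with ranks of 11086 (top 74.1%) and 13936 (top 47.3%). RXRα had them too, the highest being 1025 bp downstream in control (rank 15292) and 1101 bp downstream under RA (rank 10717). So 5 of 6 lists met the start, and RARα control was the only one absent.

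Further from Apob, a region 27.3 kb upstream had peaks in all 6 lists. RXRα ranked 1371 and 2608 there, RARα 17893 and 14066, and RARβ 6435 and 10546. A region 61.0 kb downstream of the start, beyond the gene, ranked 1977 and 1881 for RXRα and had a peak of RARα (rank 34867) and of RARβ (rank 23323) under RA alone. A region 82.1 kb downstream had peaks in 5 lists and was the best RARα peak at Apob in control (rank 6158). RARα RA also had a peak of 3479 bp inside the gene, 33296 bp downstream of the start, at rank 41172, which no other list shared.

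**Figure D3:**
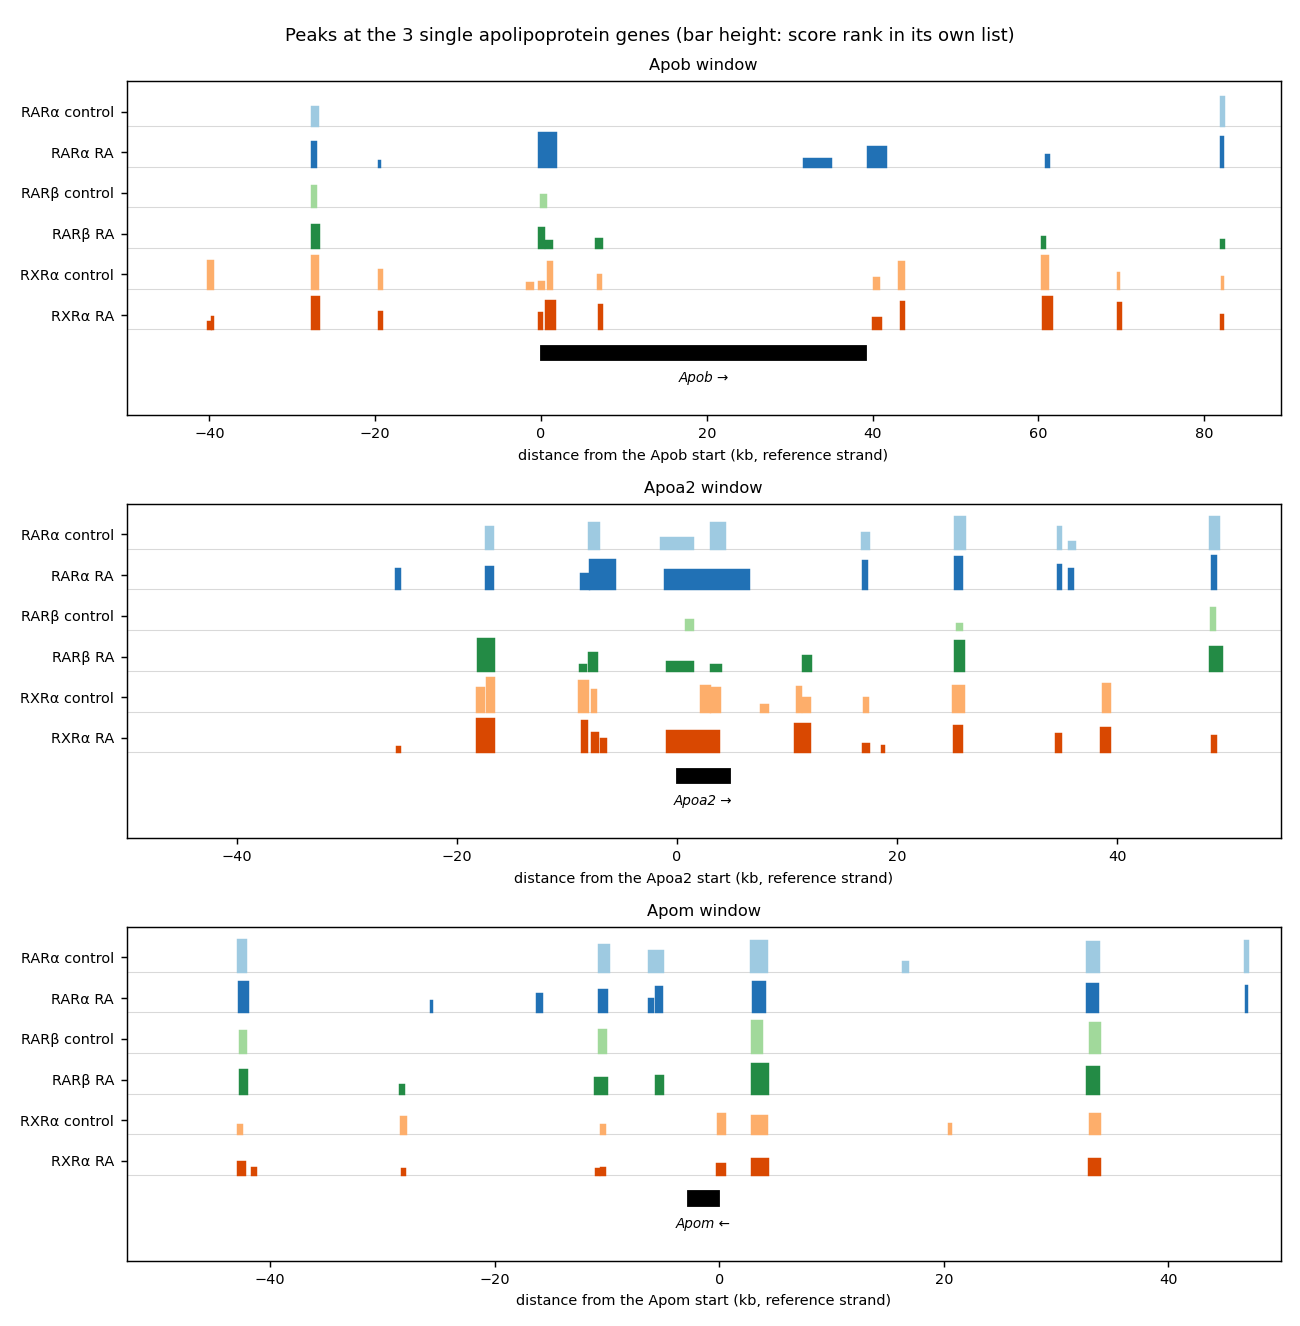
Peaks at Apob, Apoa2 and Apom against distance from the gene start (kb, reference strand), with 1 row per list. Bars have the true width of each peak, their height grows with the score rank in the list, and black boxes are the gene spans with an arrow for strand. RARα RA has a tall peak at the Apob start where RARα control has none.

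Apoa5 (chr9:46268608-46271921) lay wholly under a RARα peak in both diets, as Apoa1 did. The peak was 5748 bp wide in control (score 558, rank 779, top 2.19%) and 6203 bp wide under RA (score 409, rank 2984, top 6.74%). The control peak had the highest RARα control score of the chromosome 9 cluster, and it extended past the end of Apoa5. Its midpoint was nearer to the start of the neighbour Zpr1 (2098 bp) than to that of Apoa5 (2358 bp). The same held for the RA peak, with 1950 bp against 2506 bp. RXRα had its own peak at the Apoa5 start, 76 bp upstream in control (rank 10003) and 193 bp downstream under RA (rank 10640). RARβ had a peak near the start under RA alone (329 bp downstream, score 70.1). A region 11.6 kb upstream of Apoa5 had peaks in all 6 lists. RARβ ranked 12289 (top 82.1%) there in control and 1469 (top 4.99%) under RA, RARα 4029 and 9296, and RXRα 4450 and 4801. It was the best RARβ peak of the cluster under RA, whereas in control the best was at the start of Bud13 (rank 3627).

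At Apoc3 (chr9:46233050-46235636), RXRα had a peak at the start in both diets, 104 bp downstream in control (score 272, rank 15773) and 31 bp downstream under RA (score 476, rank 6791). RARα and RARβ had peaks there under RA and not in control, with ranks of 22579 and 21017. This RARα peak was the highest-scoring one of the cluster with no overlap in the control list, and it was in the lower part of its list (top 51.0%). Apoa4 (chr9:46240844-46243458) had peaks over its start in 5 lists, all within 179 bp of it, with RARβ control missing. They ranked 28933 and 15714 for RARα, 31013 and 28026 for RXRα and 21769 for RARβ RA. A RARα peak 6.19 kb downstream of the Apoa4 start was the best of the cluster under RA (rank 2404, top 5.43%), and RXRα ranked 60786 and 47452 there.

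In the chromosome 7 cluster, Apoe (chr7:19696244-19701310) was 91.3% covered by RARα peaks in control and 92.4% under RA. A peak of 5529 bp (score 64.5, rank 28881) covered 67.6% in control and a peak of 5403 bp (score 183, rank 14300) covered 66.3% under RA, and a separate peak at the outermost start covered the rest of those shares. RXRα covered 21.1% and 26.0%, RARβ none in control and 13.1% under RA. The RXRα peak lay by the outermost start, 402 bp downstream in control (score 586, rank 4073, top 6.66%) and 574 bp downstream under RA (score 882, rank 1456, top 2.44%), where it was the best RXRα peak of the cluster. RARβ had a peak there under RA alone (209 bp downstream, rank 4870, top 16.5%). The separate RARα peaks at the same place ranked 27003 and 34964. Apoe has 3 RefSeq promoter starts between 2122 and 2912 bp inside the outermost one. These lay under the wide RARα peaks and under no RXRα or RARβ peak, so that which start is used for Apoe decides whether RXRα counts as being at it.

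Apoc1 (chr7:19689480-19692659) was 68.2% and 60.9% covered by RARα peaks and 55.8% and 56.3% by RXRα peaks, with no RARβ peak over it. RXRα had its nearest peak 557 bp upstream in control (rank 45375) and 1021 bp upstream under RA (rank 13139). Apoc2 (chr7:19671579-19677941) had RARα and RXRα peaks at its start in both diets and no RARβ peak there. Ranks at the start were 23338 and 40291 for RARα and 22859 and 55745 for RXRα. A region 8.64 kb downstream of the Apoc2 start ranked higher, at 3559 and 6692 for RXRα and 12136 and 9538 for RARα, and had a RARβ peak under RA alone (rank 22586).

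The best RARβ peaks of this cluster were at starts of neighbours. In a region 14.4 kb upstream of Apoe, at the start of Tomm40, which encodes the channel of the mitochondrial outer membrane translocase, RARβ ranked 941 in control (top 6.29%) and 172 under RA (top 0.584%), the best rank of any list in the 5 windows. All 6 lists had a peak there. In control the best RARβ peak was at the start of Clptm1 (rank 664), where RARβ RA ranked 1517 and RXRα had a peak under RA alone (rank 43156). The best RARα peaks were at the start of Nectin2 (ranks 2438 and 4160). The best RXRα peak in control was inside Nectin2 (rank 3217).

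**Figure D4:**
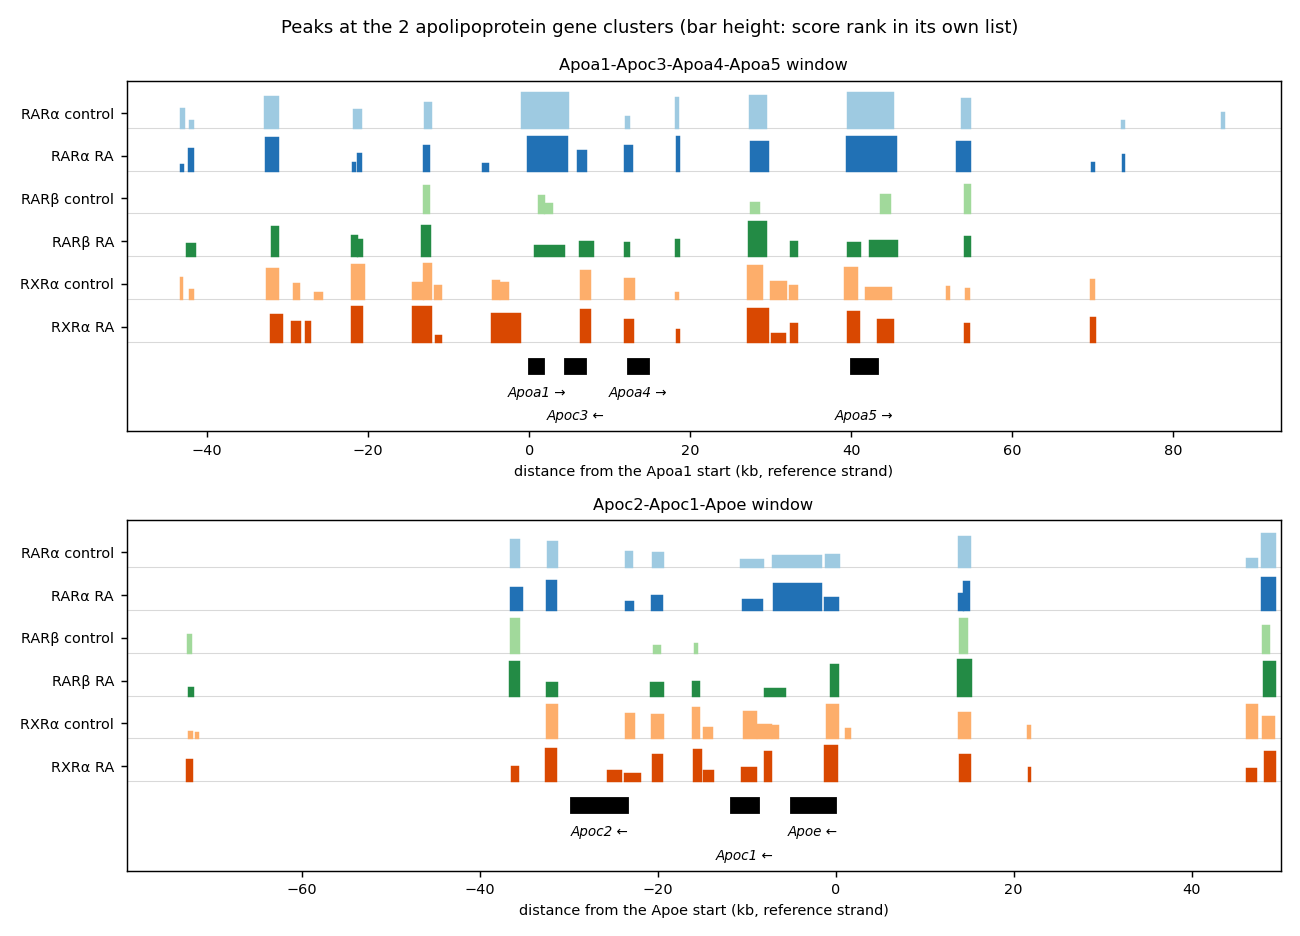
Peaks at the chromosome 9 and chromosome 7 clusters against distance from the Apoa1 and Apoe starts (kb, reference strand), with 1 row per list. Bars have the true width of each peak, their height grows with the score rank in the list, and black boxes are the gene spans with an arrow for strand. RARα bars over Apoa1, Apoa5 and Apoe are wide in both diets, and the RXRα rows are empty over Apoa1.

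Wide peaks took a larger share of the RARα peaks within 50 kb of these genes than of the whole RARα lists. Peaks of at least 2000 bp made up 14.6% of the RARα control peaks at the 10 genes (6 of 41), compared with 1.51% of the whole list, and 19.2% under RA (10 of 52), compared with 0.939%. For RARβ the shares were 0 of 21 in control, compared with 0.234%, and 11.6% under RA (5 of 43), compared with 1.28%. For RXRα they were 1.45% in control (1 of 69), compared with 0.545%, and 7.69% under RA (5 of 65), compared with 0.966%. The wide peaks touched one of the 10 genes in 5 of 6 cases for RARα control, 7 of 10 for RARα RA, 3 of 5 for RARβ RA, 1 of 1 for RXRα control and 2 of 5 for RXRα RA. By width, the RARα peak over Apoa2 under RA, which also touched Tomm40l, was the 2nd of 44296. The RARα peaks over Apoa1, Apoa5 and Apoe were between places 40 and 45 in control and between places 28 and 60 under RA. By score, the wide Apoe peaks ranked 28881 in control and 14300 under RA, and the Apoa2 peak ranked 22163 under RA.

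The span of short genes was counted in the same way. Of the 9 genes of up to 10 kb (all but Apob), 5 had at least 50% of their span under RARα peaks in control (Apoa1, Apoa2, Apoa5, Apoc1 and Apoe), compared with 2.53% of 7119 protein-coding genes of that size. Under RA there were 6, Apoc3 being added, compared with 2.01%. RARβ had none in control, compared with 0.618%, and 3 under RA (Apoa1, Apoa2 and Apoa5), compared with 1.46%. RXRα had 2 in control (Apoa5 and Apoc1), compared with 1.11%, and 2 under RA (Apoa2 and Apoc1), compared with 1.52%. In the RARα RA list, part of the 53.1% at Apoc3 lay under the wide peak over Apoa1, so this peak counted for both genes. The RARα RA and RXRα RA peaks over Apoa2 also touched Tomm40l. The width limit and this measure were chosen after the widths at Apoa1 and Apoa5 had been seen, and what sets the width was not tested.

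**Figure D5:**
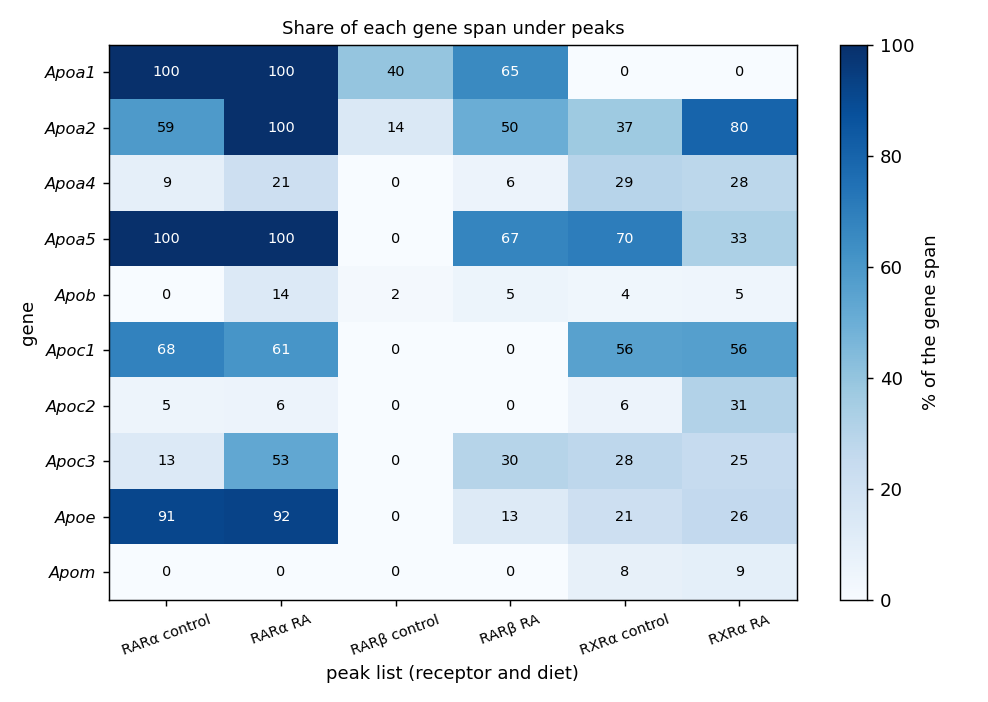
Share of each gene span lying under peaks (%, colour and number) for the 10 genes (rows) and 6 lists (columns). RARα covers all of Apoa1 and Apoa5 in both diets, where RXRα covers none of Apoa1, and Apom is free of RAR peaks.

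Peaks were taken as shared when the overlap made up 25% or more of the width of both peaks. Intervals are Wilson 95% intervals, which cover counting error only. Of the RARα control peaks at the 10 genes, 90.2% (77.5% to 96.1%, 37 of 41) were shared with RARα RA, compared with 84.2% of the whole list. For RARβ control it was 95.2% (77.3% to 99.2%, 20 of 21), compared with 75.8%, and for RXRα control 81.2% (70.4% to 88.6%, 56 of 69), compared with 78.7%. In the other direction it was 76.9% of RARα RA peaks (63.9% to 86.3%, 40 of 52), compared with 68.4%, and 83.1% of RXRα RA peaks (72.2% to 90.3%, 54 of 65), compared with 80.3%. Of RARβ RA peaks it was 46.5% (32.5% to 61.1%, 20 of 43), compared with 38.2%. Apart from RARβ control, the share of the whole list lay inside each interval. At equal list length the RARβ control share was 57.1%, compared with 56.8% of the whole list, so that this exception did not hold there, and the RARβ RA share was 75.0%, compared with 56.0%.

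Peaks with no overlap at all in the list of the other diet numbered 3 for RARα control, 11 for RARα RA, 0 for RARβ control, 22 for RARβ RA, and 10 for each RXRα list. Peaks with any overlap made up 92.7% of RARα control and 78.8% of RARα RA, compared with 84.6% and 69.1% of the whole lists. For RARβ they made up 100% and 48.8%, compared with 77.8% and 38.9%, and for RXRα 85.5% and 84.6%, compared with 79.3% and 80.7%. Peaks with no overlap were thus no more frequent here than in the whole lists. The highest peak with no overlap for RARα was the Apob start peak, and for RARβ the peak 17.4 kb upstream of Apoa2. The highest for RXRα at any locus were at ranks 30124 in control and 30915 under RA, near the middle of their lists, at 43.2 and 27.6 kb upstream of Apoa1 and inside Sik3. The RARα control ones were lower still, at ranks 24606 (46.1 kb downstream of the Apoa5 start), 29405 and 32073.

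Sharing between receptors was counted in both directions. Of RARα peaks at the 10 genes, 70.7% in control (55.5% to 82.4%, 29 of 41) and 75.0% under RA (61.8% to 84.8%, 39 of 52) were shared with RXRα, compared with 61.1% and 61.7%. Of RARβ peaks, 76.2% in control (54.9% to 89.4%, 16 of 21) and 90.7% under RA (78.4% to 96.3%, 39 of 43) were shared with RXRα, compared with 77.8% and 89.9%. Of RARβ peaks, 66.7% in control (45.4% to 82.8%, 14 of 21) and 79.1% under RA (64.8% to 88.6%, 34 of 43) were shared with RARα, compared with 74.2% and 72.1%. The share of the whole list lay inside each of these intervals except for RARα RA with RXRα, where it was just below. Of RARα peaks, 34.1% in control (21.6% to 49.5%, 14 of 41) and 63.5% under RA (49.9% to 75.2%, 33 of 52) were shared with RARβ, compared with 31.0% and 48.8%. Of RXRα peaks, 43.5% in control (32.4% to 55.2%, 30 of 69) and 60.0% under RA (47.9% to 71.0%, 39 of 65) were shared with RARα, compared with 36.0% and 45.5%. Of RXRα peaks, 23.2% in control (14.8% to 34.4%, 16 of 69) and 60.0% under RA (47.9% to 71.0%, 39 of 65) were shared with RARβ, compared with 19.0% and 44.8%. Under RA these 3 shares were above that of the whole list, which lay outside their intervals. Both directions of a pair count much the same overlaps, so these are not separate exceptions. At equal list length the share of RARα peaks shared with RXRα was 22.7% in control and 27.3% under RA, compared with 18.0% and 21.9% of the whole lists, and that of RARβ peaks was 19.0% and 50%, compared with 31.0% and 55.7%. At that length the share of the whole list lay inside the interval in all 18 comparisons between diets or receptors, against 13 of 18 with the lists as deposited. Each cut list had only 16 to 22 peaks at the 10 genes, which widens the intervals. This change therefore does not show that the shares came closer to those of the whole lists.

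Merging overlapping or touching peaks over the 6 lists gave 78 regions at the apolipoprotein genes out of 87787. Of these, 14 (17.9%, interval 11.0% to 27.9%) were called in all 6 lists, compared with 9.76% of all regions. They were 4 at the chromosome 9 cluster, 3 at the chromosome 7 cluster, 4 at Apom, 2 at Apoa2 and 1 at Apob. At the chromosome 7 cluster they were at the starts of Tomm40 and Nectin2 and at the start of Apoc4, an apolipoprotein gene outside the 10. At Apom all 4 were within 1 kb of a neighbour's start (Bag6, Gpank1, Abhd16a and Prrc2a). The nearest starts were those of Tomm40l and Adamts4 at Apoa2, and of Apoa1, Apoa5, Zpr1 and Bud13 at the chromosome 9 cluster. Merging can join peaks that were not shared. In the region of 8102 bp at Apoa2, the RARβ control peak was shared with neither RARα control nor RXRα control. RXRα without either RAR was called at 22 regions (28.2%, interval 19.4% to 39.0%), compared with 36.3%. An RAR without RXRα was called at 11 (14.1%, interval 8.06% to 23.5%), compared with 20.1%, and 5 of these were at Apom. RARβ under RA and not in control, at a place where RXRα was called in both diets, accounted for 16 regions (20.5%, interval 13.04% to 30.75%), compared with 16.5%. Of those 16, 6 were at the chromosome 9 cluster.

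Many peaks in the windows were nearer to other genes. The nearest protein-coding start belonged to one of the 10 genes for 16 of 41 RARα control peaks, 23 of 52 under RA, 6 of 21 and 21 of 43 for RARβ, and 37 of 69 and 32 of 65 for RXRα. Peaks within 1 kb of another gene's start were 12 of 41 and 16 of 52 for RARα, 13 of 21 and 15 of 43 for RARβ, and 12 of 69 and 18 of 65 for RXRα. The share of peaks in the top 10% of their list was from 11.6% (RARβ RA) to 17.3% (RARα RA).

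Other genes of lipoprotein assembly, remodelling and uptake were counted from a list of 26. Within 10 kb of the start, RARα had a peak at 23 of 26 in each diet, RARβ at 18 in control and 22 under RA, and RXRα at 25 and 24, beside the same shares of all protein-coding genes as above. Lipc, the hepatic lipase gene, was without a peak in 5 of the lists, RXRα RA being the exception. Lpl, the lipoprotein lipase gene, was without one in RARα RA, both RARβ lists and RXRα RA.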

How the data were processed

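Per the labels, DNA pulled down with each antibody from mouse liver was sequenced as single-end reads of 35 bp. The submitters' processing notes name CASAVA 1.4 and Bowtie with mm10, and the methods of the study name MACS for peak calling against the input. The authors deposited 1 peak list per receptor and diet, each peak with a score from the peak caller. The scores are not normalized between libraries, so ranks within a list were used, and list length may reflect sequencing depth. The lists hold no read totals, so depth was not analysed here.

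Gene spans were taken from RefSeq (GRCm38.p6), and the strand from the GENCODE annotation by symbol, which gave 20583 of 21896 protein-coding genes. Of 16542 strands that the promoter table also held, 16491 were alike. Coordinates of the older genome build were not used. The 10 genes, the comparison list and the measures were chosen with earlier results of these data known. Named peaks are the highest of each locus and list, the nearest to each start, and the highest without overlap in the other diet. Overlaps and merging used bedtools 2.31.1, with Python 3.11.15, pandas 2.3.3, numpy 2.4.6, scipy 1.17.1 and matplotlib 3.10.9, and were tested on simulated peaks. Other windows, overlap rules, a score minimum, lists of equal length and other gene starts were tried. Exons and introns were not analysed here. A peak of the Apoa2 window is not reported here.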

Additional observations from a re-analysis of the deposited data

Results flagged for a closer look

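The number of peaks at the apolipoprotein genes differed between the diets in opposite directions for the RARs and RXRα, with 1 library each, and the differences were not tested. Over all 5 loci the difference, RA minus control, was +11 for RARα (41 to 52) against -4 for RXRα (69 to 65), which are 15 peaks apart. It was +22 for RARβ (21 to 43), which is 26 apart from RXRα. At the chromosome 9 cluster it was +3 for RARα (13 to 16) against -5 for RXRα (22 to 17), 8 apart, and +8 for RARβ (6 to 14), 13 apart from RXRα. At the chromosome 7 cluster it was +3 for RARβ (6 to 9) against -1 for RXRα (16 to 15), 4 apart. The whole lists differed in the same directions, from 35521 to 44296 peaks for RARα, from 14968 to 29467 for RARβ and from 61128 to 59624 for RXRα. With each list cut by score to 14968 peaks, the counts over all loci were 22 and 22 for RARα, 21 and 16 for RARβ, and 16 and 18 for RXRα, so that the RARβ and RXRα differences turned and the RARα difference was gone.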

How the results depend on the processing

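The 31 counts and shares were computed under 165 alternatives, of which 91 stayed within 1.5 times the count or inside the Wilson interval of the share and 74 did not. Values are in the order RARα control, RARα RA, RARβ control, RARβ RA, RXRα control and RXRα RA unless named. The number of peaks was 17, 23, 10, 24, 36 and 32 with a window of 10 kb, 68, 86, 32, 68, 107 and 104 with a window of 100 kb, and 16, 23, 6, 21, 37 and 32 when only peaks nearest to one of the 10 starts were kept. With a score of at least 100 it was 26 for RARα control, 7 and 15 for RARβ, and 41 and 41 for RXRα. With each list cut by score to 14968 peaks it was 22, 22, 16 (RARβ RA), 16 and 18, so that RARα and RXRα no longer differed between the diets by more than 2 peaks and RARβ RA had fewer than RARβ control (21).

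Shares between diets with equal lists were 77.3% for RARα control, 57.1% for RARβ control, 75.0% for RARβ RA and 66.7% for RXRα RA. RARβ control was at 100% with any overlap and 71.4% with a 50% overlap, which gave 69.6% for RXRα control and 61.5% for RARα RA. RXRα RA was at 70.7% with the score minimum. Shares between receptors with equal lists were 22.7% and 27.3% for RARα with RXRα, and 19.0% and 50% for RARβ with RXRα, and the whole lists had 18.0%, 21.9%, 31.0% and 55.7%. They were also 54.5% for RARα control with RARβ, 31.3% and 33.3% for RXRα with RARα, and 44.4% for RXRα RA with RARβ. With the 50% overlap they were 55.8% for RARα RA with RXRα, 53.5% for RARβ RA with RARα, 72.1% for RARβ RA with RXRα, 44.2% for RARα RA with RARβ, and 44.6% and 47.7% for RXRα RA with RARα and RARβ. With the score minimum they were 53.8% and 57.1% for RARα with RXRα, 100% and 93.3% for RARβ with RARα, 40.0% for RARα RA with RARβ, and 12.2% and 31.7% for RXRα with RARβ. RARβ control with RARα was 85.7% with any overlap and 40.0% with the 10 kb window.

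Genes with a peak within 1 kb in place of 10 kb were 5, 6, 1 and 6 for the RAR lists. Within 1 kb of any RefSeq start, an alternative added after the data were seen, they were 5, 7, 1, 6, 9 and 7. From the outermost start RXRα had 8 and 7. With the score minimum RARβ had 1 and 4 genes, and with equal lists RARβ RA had 4 and RXRα control 5. Regions in all 6 lists were 5 with the 10 kb window, 5 with the score minimum and 1 with equal lists. The cause of these differences was not tested beyond what each setting removes. With any RefSeq start, the score minimum or equal lists, the shares of all genes and of all regions were not counted. The counts of genes and regions at these settings therefore have no comparison.

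No paired analysis was possible because each receptor and diet had 1 library and no value came from a test. The lists hold no read totals, so the part of depth in their lengths was not analysed here, and a missing peak can be one just under the caller's score limit.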

Other observations

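Of the 10 widest RARα control peaks, 7 touched a gene of the Mup family, which encodes the major urinary proteins, 1 touched Pck1, the gene of cytosolic phosphoenolpyruvate carboxykinase, and 1 touched Kyat3. The widest, over Mup10, was 8725 bp with a score of 51.3. Under RA the widest of the list was over Tdo2, the gene of tryptophan dioxygenase (8371 bp, score 50.5). The peak touching Apoa2 and Tomm40l came next at 7721 bp. The Mup genes are near-identical copies. The study counts uniquely mapped reads for its RXRα and RARα ChIP-seq without naming a diet there. Whether reads that match several copies shaped these peaks was not tested. Among the 10 widest RARα RA peaks, 7 also touched a Mup gene. No RARβ or RXRα list had a peak touching a Mup gene among its 10 widest. Of those lists only RXRα RA had one touching any of the 10 apolipoprotein genes, at Apoa2. These genes were named after their values were seen.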
